A study of Mus musculus with 36 samples.

Results

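Gene counts of mouse bone marrow-derived macrophages were compared between 8 h and 2 h of lipopolysaccharide (LPS), a component of the outer membrane of Gram-negative bacteria. The comparison used the 6 libraries with the genotype label WT and 8 h of LPS and the 6 with that label and 2 h of LPS, 12 of the 36 libraries of the series. Marrow cells were grown in 20 ng/mL M-CSF, the growth factor of macrophages, over 5 days, and LPS was given at 100 ng/mL. The series text gives the wild type strain as C65BL6, spelled so, and 1 library of each time carries the genotype label BMDM WT. Libraries labelled NOS1 KO at the same times, 6 each, and 6 untreated WT-labelled controls served for comparison. Counts of Nos1 per gene in the KO-labelled libraries of this series do not bear out that label. They cannot settle the genotype, so both genotypes are named here by their labels. The labels give no animal, sex or batch, and do not say whether a group's libraries are separate cultures, so the p-values rest on a spread between libraries that may be technical.

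LPS is sensed by Toll-like receptor 4, which signals through MyD88 to NF-kB and MAP kinases and through TRIF to IRF3. A first wave of genes, such as Tnf, immediate early transcription factors and inhibitors of NF-kB, needs no new protein. Interferon beta is made in that wave, is secreted and signals back through its receptor, which drives a second wave of interferon-stimulated genes, and macrophages that were dividing leave the cell cycle.

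Total counts ran from 10094354 to 18482551 in the 2 h libraries and from 8953489 to 15112452 in the 8 h libraries. Of 10 macrophage markers, all were measured, and their summed level was 16600 to 21000 CPM (a gene's counts scaled to a common library size) at 2 h and 17300 to 23400 CPM at 8 h. Of 13 T and NK cell markers, 6 had no count in any of the 12 libraries, among them Cd3e and Ncr1, and the list summed to at most 13.6 CPM. Stromal markers summed to 36.1 to 102 CPM at 2 h and 49.8 to 236 CPM at 8 h, with 5 of 8 tested members called higher and 0 lower. Endothelial markers summed to 131 to 283 CPM and 125 to 197 CPM, with 3 of 4 tested called higher and 1 lower. The part of these cell types in the results was not tested. The sum of dendritic cell markers was 259 to 287 CPM at 2 h and 1010 to 1200 CPM at 8 h, with 4 of 9 tested members higher and 1 lower. That list holds Bst2, which is also an interferon-stimulated gene, and Ccr7. The libraries of every group fell into 2 unlabelled sets of 3 along the first principal component, replicates 1, 2 and 6 (set A) and replicates 3, 4 and 5 (set B), so the change is also given within each set. Replicate 1 at both times held Xist reads and no reads of Y-linked genes, while the other replicates held Y-linked reads. Skeletal muscle markers summed to 5250 CPM in replicate 5 at 8 h, to 612 and 240 CPM in replicates 6 and 5 at 2 h, to 147 CPM in replicate 6 at 8 h and to at most 41.6 CPM in the other 8 libraries.

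With edgeR's quasi-likelihood test and Benjamini-Hochberg adjustment, 8131 of 12957 tested genes (62.8%) were called at an adjusted p below 0.05. Of all tested genes 30.0% were higher at 8 h, 3888 genes, and 32.7% were lower, 4243 genes. A change beyond 2-fold was seen in 1763 of the genes called higher and 2095 of those called lower. For 5352 genes (41.3%) the 6 libraries of one time did not overlap the 6 of the other. The median log2 fold change of all tested genes was -0.04. Scaling libraries by their totals alone moved that median to -0.51 and the share of higher genes among those called from 47.8% to 22.3%, so that directions are relative to the trimmed mean scale. Counts of lists are to be read against these shares, and the lists were written with earlier results of these data known. In RNA of whole cultures, fewer cells of a kind and less RNA per cell cannot be told apart.

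**Figure D1:**
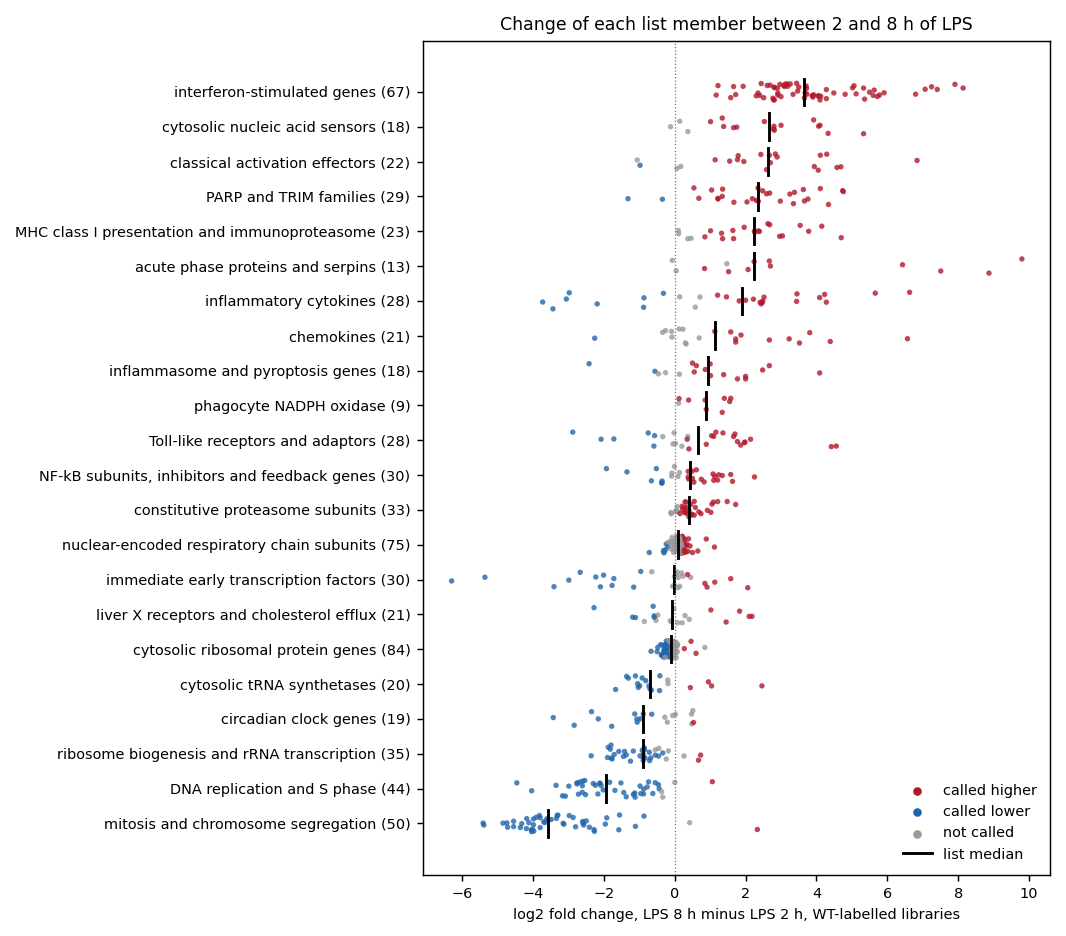
Each point is 1 tested gene of a list (number tested in brackets), placed by its log2 fold change between 8 and 2 h of LPS in WT-labelled libraries, with red for genes called higher, blue for genes called lower, grey for genes not called and a black bar for the list median. Interferon-stimulated genes lie to the right of 0 in all 67 cases (median 3.66), and 48 of 50 mitosis genes lie among the genes called lower (median -3.59).

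The list of interferon-stimulated genes was written with earlier results of these data known, and its counts do not cover such genes outside it. All 67 tested members were called higher at 8 h than at 2 h, with a median log2 fold change of 3.66. Their range was 1.17 to 8.14, and for each of them the libraries of the times did not overlap. At 2 h, 51 of them already stood above the untreated controls and 1 below (median 1.86). Gbp4, a guanylate-binding protein that acts on vacuoles holding pathogens (chromosome 5, 105115767 to 105139586, mm10), had 0.285 to 1.32 CPM at 2 h (median 0.758) and 140 to 373.3 CPM at 8 h (median 207). Every 8 h library was thus above every 2 h library, by 8.14 ± 0.49 on the log2 scale (SE; edgeR adjusted p = 6.31e-16). Gbp10, of the same family, had no count in any 2 h library and 1.38 to 2.64 CPM at 8 h. Against a floor of 3 counts over the group its rise was at least 5.57 on the log2 scale. Guanylate-binding proteins are near copies of each other, so the split of reads between them is uncertain.

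Irf7, the transcription factor that amplifies type I interferon production, went from 43.8 to 99.7 CPM at 2 h (median 55.2) to 2390 to 2960 CPM at 8 h (median 2650), a log2 fold change of 5.36 ± 0.64. Ifnb1 itself, the gene for interferon beta (chromosome 4, 88522025 to 88522774), ran the other way. It had 26.7 to 75.6 CPM at 2 h (median 42.2) and 1.23 to 7.70 CPM at 8 h (median 3.51), with no overlap and a log2 value of -3.54 ± 0.35 (edgeR adjusted p = 9.26e-11). At both times its 3 set A libraries were above the 3 of set B, as the plot of levels per library shows.

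Among 19 interferon ligands, receptors, STAT and IRF factors, 12 rose and 6 fell (median 0.59). Irf8, a lineage factor of macrophages, rose by 1.97 ± 0.20 and Stat3, which serves interleukin-6 and interleukin-10, by 2.66 ± 0.16. Ifngr1, the ligand-binding chain of the interferon gamma receptor, fell from 169 to 236 CPM at 2 h to 39.1 to 56.0 CPM at 8 h (log2 -2.02 ± 0.14). Irf4, a factor linked to alternative activation, fell by 2.26 on the log2 scale (SE 0.33). Irf1 was not called, at 673 to 1050 CPM and 526 to 948 CPM (log2 -0.23 ± 0.18). It was called lower under scaling by library totals alone (-0.71) and within set B (-0.34).

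**Figure D2:**
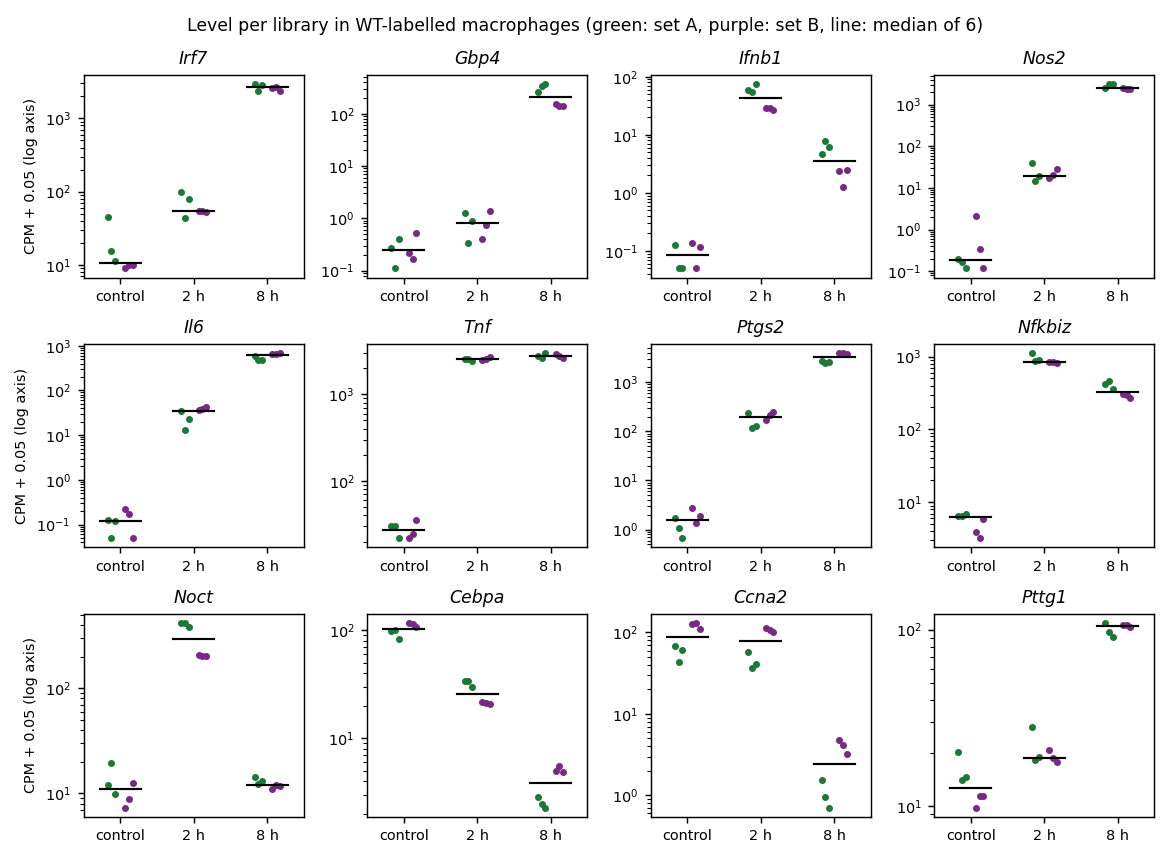
Level of 12 genes in each WT-labelled library as CPM plus 0.05 on a log axis, for controls, 2 h and 8 h of LPS (6 libraries each, green for set A, purple for set B, bar for the median). Irf7, Gbp4, Nos2, Il6 and Ptgs2 stand higher at 8 h than at 2 h in all 6 libraries, Ifnb1, Nfkbiz, Noct, Cebpa and Ccna2 lower, and Tnf overlaps between the times.

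The interferon-stimulated response element (ISRE) is a DNA site bound by factors that interferon activates. Its core was searched as GAAA, any 2 bases and GAAA again, on both strands, in RefSeq promoters of 300 bases (build GRCm38.p6, the assembly of mm10), which run from 250 bases before the start to 50 after it. Of 12955 tested symbols 9769 matched a promoter. The core stood in 1131 of 32851 promoters in the table (3.44%). Among tested genes it stood in 204 of 2957 called higher at 8 h (6.90%), 88 of 3262 called lower (2.70%) and 105 of 3550 not called (2.96%). Of 49 interferon-stimulated genes with a promoter, 30 held it (61.2%). Promoters of 2 listed genes with large rises that hold the core are printed here to show where it lies, with the core in capitals. They are examples and no ranking, since Iigp1, for one, rose more (log2 7.91 ± 0.54) and its promoter is not shown. Ifit1bl1, a relative of Ifit1 (chr19:34599378-34599677, minus strand), went from 2.18 to 9.04 CPM to 480 to 872 CPM (log2 6.80 ± 0.47). Its core reads on the opposite strand from 23 bases before 1 of its 2 listed starts. Tgtp1, an immunity-related GTPase (chr11:48992197-48992496, minus strand), went from 0.095 to 0.824 CPM to 17.5 to 57.2 CPM (log2 5.91 ± 0.40), with the core from 77 bases before the start. A match is a description of letters and no evidence of binding.
Ifit1bl1: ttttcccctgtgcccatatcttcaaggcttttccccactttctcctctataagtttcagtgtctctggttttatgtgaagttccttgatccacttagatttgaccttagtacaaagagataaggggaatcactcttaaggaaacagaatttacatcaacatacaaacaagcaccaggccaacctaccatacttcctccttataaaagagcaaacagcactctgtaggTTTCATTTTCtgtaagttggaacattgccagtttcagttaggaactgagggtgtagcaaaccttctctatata
Tgtp1: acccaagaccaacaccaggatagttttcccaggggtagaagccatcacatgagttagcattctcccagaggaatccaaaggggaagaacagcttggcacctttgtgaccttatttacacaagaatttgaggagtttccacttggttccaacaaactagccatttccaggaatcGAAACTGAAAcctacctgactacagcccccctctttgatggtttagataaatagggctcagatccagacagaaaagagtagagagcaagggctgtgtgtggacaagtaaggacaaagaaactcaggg

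In the PARP and TRIM families 27 of 29 genes rose and 2 fell (median 2.36). Parp11, a mono-ADP-ribosyltransferase, had 8.42 to 12.6 CPM at 2 h, below control (log2 -0.52), and 220 to 366.4 CPM at 8 h (log2 4.74 ± 0.20). Trim30c, a ubiquitin ligase of the mouse Trim30 cluster whose members are near copies, rose by 4.76 ± 0.35. Genes of the cytosolic nucleic acid sensor list rose in 15 of 18 cases, and 0 fell (median 2.66). Several of them, such as Ddx58, Ifih1 and Zbp1, are also counted among the interferon-stimulated genes above. The kinases Tbk1 and Ikbke, which are not sensors, are among those that rose. Zbp1, a sensor of Z-form nucleic acid that also starts necroptosis, had 8.26 to 30.2 CPM at 2 h and 566 to 730 CPM at 8 h (log2 5.33 ± 0.60), and Mlkl, the effector of necroptosis, rose by 3.35 ± 0.20.

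Genes that present peptides on MHC class I rose in 19 of 23 cases, and 0 fell (median 2.25). Nlrc5, the transactivator of these genes, stood at 24 to 58.4 CPM at 2 h, not different from control (log2 0.21), and at 463 to 743 CPM at 8 h (log2 4.15 ± 0.26). Tap1, the peptide transporter, went from 66.3 to 97.0 CPM to 995 to 1310 CPM (log2 3.78 ± 0.24). Class II genes rose in 6 of 12 cases, and 1 fell (median 0.63). H2-Ab1, a class II chain, overlapped between the times, at 4.37 to 36.8 CPM and 16.5 to 113 CPM (log2 1.66 ± 0.60). It was not called with library totals alone (1.21), without a count filter (1.6) or without the 4 libraries with over 100 CPM of muscle markers (1.57). Constitutive proteasome subunits rose in 27 of 33 cases, and 0 fell (median 0.40), with Psma5 at 1.72 ± 0.09 and Psma6 at 1.48 ± 0.11, but the median was -0.07 under library totals alone, with 9 higher and 10 lower.

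Cytokine genes went in both directions. Of 28 inflammatory cytokines 17 rose and 8 fell (median 1.91). Tnf, which stood 6.54 above control on the log2 scale at 2 h, was at 2410 to 2660 CPM at 2 h (median 2560) and 2630 to 2980 CPM at 8 h (median 2800). The times overlapped and Tnf was not called (log2 0.14 ± 0.18, edgeR adjusted p = 0.506, or -0.33 under library totals alone). Il6, whose product acts on STAT3, went from 13.2 to 42.3 CPM (median 35.2) to 477 to 677 CPM (median 612), a rise of 4.23 ± 0.30 on the log2 scale (edgeR adjusted p = 2.59e-14). Subunits of the interleukin-12 family diverged. Il12a, the p35 chain of interleukin-12, rose by 4.28 ± 0.46 and Il12b, the chain shared by interleukins 12 and 23, by 2.0 ± 0.39. Il23a, the chain specific to interleukin-23, fell from 3.69 to 8.40 CPM at 2 h to 0.175 to 0.59 CPM at 8 h (log2 -3.73 ± 0.40).

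Tnfsf10, the death ligand TRAIL, had the largest rise of the cytokine list, from 1.23 to 2.83 CPM to 127 to 333 CPM (log2 6.63 ± 0.52). Csf3, granulocyte colony-stimulating factor, rose by 5.66 ± 0.72, although its 8 h libraries ran from 4.88 to 124 CPM. Lif, a cytokine of the interleukin-6 family, fell from 10.9 to 20.6 CPM to 0.906 to 2.72 CPM (log2 -3.06 ± 0.29). Il1b rose from 380 to 963 CPM to 1380 to 5040 CPM (log2 2.48 ± 0.32). Its rise was 1.37 (set A) and 3.24 (set B), a difference of -1.87 ± 0.42 that was called (edgeR adjusted p = 0.00251). Il10, the anti-inflammatory cytokine, was not called (0.58 ± 0.41), with -0.11 (set A) and a called 1.58 (set B).

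Of 21 chemokines 11 rose and 1 fell (median 1.13). Ccl5, a chemoattractant of T cells, went from 526 to 626 CPM (median 582) to 7180 to 8960 CPM (median 8290), or from 0.0604% to 0.615% of all counts. Cxcl9, a ligand of CXCR3, went from 1.52 to 7.41 CPM to 129 to 558 CPM (log2 6.57 ± 0.45). Cxcl10, which binds the same receptor, was at 1040 to 1650 CPM at 2 h and rose by 1.58 ± 0.27, by 2.03 (set A) and 0.93 (set B). Ccl8 rose by 4.39 ± 0.50. Cxcl1, a neutrophil attractant, was the single chemokine called lower, from 145 to 230 CPM to 11.3 to 54.7 CPM (log2 -2.26 ± 0.26). Of 14 chemoattractant receptors 6 rose and 6 fell. Fpr2, a receptor for formylated peptides, rose by 4.69 ± 0.33, while C5ar1, the receptor for complement C5a, fell from 881 to 1160 CPM to 283 to 335 CPM and Cxcr4, the receptor for CXCL12, from 6.36 to 27.2 CPM to 0.302 to 2.26 CPM.

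NF-kB subunits, inhibitors and feedback genes rose in 18 of 30 cases, and 7 fell, with a median of 0.44 that turned to -0.02 under library totals alone (11 higher, 11 lower). Nfkbia, the classical inhibitor, had 1170 to 1600 CPM at 2 h and 1180 to 1450 CPM at 8 h, with a log2 fold change of -0.01 ± 0.10. Within the sets Nfkbia was called in opposite directions (-0.25 in set A, 0.25 in set B). Both Nfkbiz and Nfkbid, which encode nuclear IkB proteins, fell. Nfkbiz, an activator of a subset of NF-kB targets, went from 807 to 1110 CPM to 270 to 456 CPM (log2 -1.35 ± 0.14), and Nfkbid from 52.8 to 128 CPM to 13.4 to 23.9 CPM (log2 -1.93 ± 0.18). Rel, a subunit, fell by 0.66 on the log2 scale (SE 0.13). Traf1, an adaptor of TNF receptors, rose from 93.1 to 199 CPM to 488 to 950 CPM (log2 2.25 ± 0.30), and Sod2, mitochondrial superoxide dismutase, by 1.63 ± 0.10.

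Genes of the immediate early list, most of them transcription factors, fell in 12 of 30 cases, all without overlap, and rose in 6 (median -0.01). Ier3 and the kinases Plk2 and Plk3, which are not transcription factors, are among those that rose. Fosb, a partner of JUN, went from 1.42 to 22.8 CPM at 2 h to 0 to 0.604 CPM at 8 h (log2 -6.30 ± 0.97). Egr2, a zinc finger factor, went from 56.7 to 103 CPM (median 65.6) to 1.71 to 10.0 CPM (median 8.00), a log2 value of -3.41 ± 0.27 (edgeR adjusted p = 8.31e-13). Fos itself was not called (0.19 ± 0.29, or -0.27 under library totals alone). Ier3 rose by 2.06 ± 0.32, with 1.09 (set A) and 2.81 (set B). Its highest 2 h library overlapped the 8 h range. For 12 of the 30 genes the change was called lower in set A than in set B, and for 2 higher, where 15.9% of all genes were called in either direction.

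The NF-kB consensus, searched by its usual degenerate letters on both strands, stood in 1198 of 9769 tested genes with a promoter (12.3%). It stood in 12.9% of the genes called higher, 12.9% of those called lower and 11.1% of those not called. Of 25 NF-kB subunit and feedback genes 13 held it (52.0%), of 20 cytokines 7 and of 24 immediate early genes 7. The promoters of the 2 genes of the cytokine, chemokine, NF-kB and immediate early lists with the largest falls that hold it are printed with the matches in capitals, as counterparts of those above. They belong to Fosb (chr7:19309996-19310295, minus strand), with the match from 188 bases before the start, and Egr2 (chr10:67535249-67535548, plus strand), with overlapping matches from 117 and 116 bases before 1 of its 5 listed starts.
Fosb: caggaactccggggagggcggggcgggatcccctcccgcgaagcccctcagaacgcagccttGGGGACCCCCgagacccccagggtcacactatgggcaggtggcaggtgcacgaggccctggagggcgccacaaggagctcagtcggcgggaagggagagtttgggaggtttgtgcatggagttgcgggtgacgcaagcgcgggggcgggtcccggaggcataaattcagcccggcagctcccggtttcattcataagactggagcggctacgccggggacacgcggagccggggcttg
Egr2: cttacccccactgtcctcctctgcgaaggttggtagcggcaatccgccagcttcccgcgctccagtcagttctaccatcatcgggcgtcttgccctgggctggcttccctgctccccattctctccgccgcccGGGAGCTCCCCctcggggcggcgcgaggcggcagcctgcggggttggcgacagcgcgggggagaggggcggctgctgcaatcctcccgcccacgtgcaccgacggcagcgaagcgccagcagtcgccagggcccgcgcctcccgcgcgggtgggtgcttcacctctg

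Genes of the list of SOCS proteins and cytokine signal attenuators rose in 8 of 16 cases, and 4 fell. Their median of 0.43 was -0.04 under library totals alone. The list also holds cytokine receptor chains, of which Il10ra and Il10rb rose and Il6st and Il6ra fell. Socs1, the suppressor named in the series title (chromosome 16, 10782240 to 10785536), had 11.1 to 29.9 CPM at 2 h (median 15.1) and 63.5 to 90.9 CPM at 8 h (median 69.2), without overlap (log2 1.98 ± 0.25, edgeR adjusted p = 1.43e-08). Socs3, which acts on the interleukin-6 receptor, overlapped at 548 to 1050 CPM and 804 to 1480 CPM (log2 0.68 ± 0.22). It was not called within set A (0.24) or under library totals alone (0.22). Cish, another member of that family, fell from 30.0 to 48.0 CPM to 2.72 to 11.5 CPM (log2 -2.34 ± 0.24). Among regulators of mRNA decay, Zfp36, which destabilises cytokine mRNAs, rose from 278 to 345 CPM to 898 to 1270 CPM (log2 1.86 ± 0.18), while its relative Zfp36l1 fell by 2.99 (SE 0.41). Noct, a phosphatase of NADP(H) with circadian expression, was among the 10 largest falls of all genes named by the rule. It stood at 8 h near its control level, with control, 2 h and 8 h medians of 10.9, 295 and 12.1 CPM (log2 8 h minus 2 h -4.62 ± 0.29). Dusp4, a phosphatase of MAP kinases, fell by 1.68 (SE 0.21) on the log2 scale, by 2.42 (set A) and 1.01 (set B).

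Effector genes of classical activation rose in 18 of 22 cases, and 1 fell (median 2.63). Nos2, the inducible nitric oxide synthase (chromosome 11, 78920787 to 78960254), had 14.9 to 40.0 CPM at 2 h (median 19.8) and 2360 to 3170 CPM at 8 h (median 2520). The rise of 6.84 ± 0.50 on the log2 scale (edgeR adjusted p = 7.03e-14) was seen in both sets (6.87 and 6.78). Genes of arginine, nitric oxide and polyamine metabolism, a list that includes Nos2, went both ways, with 6 of 21 higher and 9 lower (median -0.26). Slc7a2, an arginine transporter, rose by 2.59 ± 0.35 and Ass1, which acts in the synthesis of arginine from citrulline, by 2.84 ± 0.31. Slc7a1, another arginine transporter, fell by 1.80 (SE 0.31), although the times overlapped, at 28.3 to 153 CPM and 25.4 to 37.3 CPM. Arg1, which competes for arginine, had few counts and was not called (-1.43 ± 1.07, with 1.39 in set A, not called there, and a called -1.54 in set B).

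Acod1, which makes itaconate from a citric acid cycle intermediate, went from 1140 to 2740 CPM (median 2060) to 9090 to 11800 CPM (median 10700), a log2 fold change of 2.43 ± 0.35. Idh1, the cytosolic isocitrate dehydrogenase, fell by 1.53 (SE 0.23). The largest called rises of the eicosanoid list, which the rule picks by size, were 3 genes of prostaglandin E2 synthesis. Pla2g4a, the phospholipase that frees arachidonic acid, was at control level at 2 h (log2 0.10, not called) and rose from 13.5 to 48.3 CPM to 184 to 212 CPM. Ptgs2, cyclooxygenase 2, went from 116 to 243 CPM to 2490 to 3860 CPM (log2 4.11 ± 0.28), and Ptges, the terminal synthase, from 11.6 to 15.5 CPM to 96.3 to 374.5 CPM (log2 4.29 ± 0.27). The wider eicosanoid list fell in 9 of 16 cases, and 4 rose (median -0.78). Ptgs1, cyclooxygenase 1, was at -1.60 ± 0.24, Ptges2 rose by 0.36 ± 0.10 and Ptges3 was not called (-0.18 ± 0.11). Genes of the phagocyte NADPH oxidase list rose in 8 of 9 cases, and 0 fell (median 0.89). Cybb, the catalytic subunit, was at 1010 to 1590 CPM and 3360 to 4000 CPM (log2 1.55 ± 0.10). Those that rose include Nox1, of another oxidase (1.58), and Cybc1, a chaperone (1.34).

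Of 34 glycolysis, lactate and hypoxia genes 9 rose and 10 fell, with a median that turned from 0.02 to -0.45 under library totals alone (6 higher, 18 lower). Pfkfb3, which makes the activator of phosphofructokinase, had 35.1 to 167 CPM at 2 h and 436 to 532 CPM at 8 h (log2 2.75 ± 0.40), with 2.08 (set A) and 3.86 (set B). Slc2a6, a hexose transporter, rose by 1.71 ± 0.19.

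Serpina3g, a protease inhibitor that acts on cathepsins (chromosome 12, 104236245 to 104241939), had 0.213 to 1.05 CPM at 2 h (median 0.778), not different from control, and 409 to 1090 CPM at 8 h (median 553). Its log2 fold change of 9.80 ± 0.51 (edgeR adjusted p = 1.52e-17) was the largest that the rule for named genes found. Serpina3f, its neighbour and near copy, rose by 8.87 ± 0.48, so the split of reads between them is uncertain. Acute phase proteins and serpins rose in 10 of 13 cases, and 0 fell (median 2.24), among them Cp, the ferroxidase ceruloplasmin, from 0.658 to 2.10 CPM to 157 to 249 CPM (log2 7.51 ± 0.27). Complement genes rose in 11 of 17 cases, and 1 fell (median 0.52). C3, the central component, went from 79.0 to 162 CPM to 1330 to 2530 CPM (log2 4.02 ± 0.39), and Cfb, of the alternative pathway, from at most 0.278 CPM to 6.64 to 19.8 CPM (log2 7.24 ± 0.53).

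Further large rises were those of genes outside the lists and of Slfn4, one of the interferon-stimulated genes counted above. Ms4a4c, a tetraspan membrane protein, rose by 7.93 ± 0.66, Phf11a by 7.60 ± 0.58, Clic5, a chloride channel protein, by 7.41 ± 0.42 and Slfn4, a Schlafen protein of myeloid cells, by 7.25 ± 0.88. Olfr56, annotated as an olfactory receptor (chromosome 11, 48978889 to 49135387), rose by 8.42 ± 0.36. Its annotated span holds Tgtp1 (48985327 to 48994172), so reads of these genes may not be told apart.

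Toll-like receptors and adaptors rose in 16 of 28 cases, and 6 fell (median 0.65). Tlr3, the receptor of double-stranded RNA, went from 7.88 to 16.2 CPM to 159 to 321 CPM (log2 4.42 ± 0.22), while Tlr2, the receptor of lipopeptides, fell from 535 to 1090 CPM to 180 to 314 CPM (log2 -1.72 ± 0.16). Sigirr, an inhibitory receptor of the family, fell by 2.88 (SE 0.29). Scavenger, efferocytosis and Fc receptors rose in 13 of 29 cases, and 9 fell, with a median of 0.24 that was -0.21 under library totals alone. Fcgr1, the high-affinity IgG receptor, went from 52.6 to 73.9 CPM to 1250 to 1600 CPM (log2 4.46 ± 0.33) and Marco, a scavenger receptor for bacteria, from 7.47 to 35.9 CPM to 208 to 548 CPM (log2 4.05 ± 0.44). Olr1, which binds oxidised lipoprotein, fell by 2.48 (SE 0.26).

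Inflammasome and pyroptosis genes rose in 13 of 18 cases, and 2 fell (median 0.93). Il18, whose product caspase 1 cleaves, went from 6.02 to 10.4 CPM to 114 to 167 CPM (log2 4.09 ± 0.17), and Casp1 rose by 2.67 ± 0.15. Among BCL2 family and death receptor genes 15 of 27 rose and 7 fell, with a median of 0.29 that was -0.17 under library totals alone. Bcl2l11, the death activator BIM, fell from 312 to 728 CPM to 38.9 to 112 CPM (log2 -2.65 ± 0.32).

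Lineage factors and receptors of macrophages rose in 12 of 33 cases, and 10 fell, with a median of 0.01 that was -0.45 under library totals alone. Spi1, the master factor PU.1, rose from 380 to 419 CPM to 565 to 848 CPM (log2 0.79 ± 0.08). Batf2, an interferon-induced factor, rose by 4.82 ± 0.26. Cebpa, a factor of myeloid differentiation, fell at both steps, from a control median of 103 CPM to 20.5 to 33.6 CPM at 2 h and 2.24 to 5.47 CPM at 8 h (log2 8 h minus 2 h -2.79 ± 0.23), by 3.67 (set A) and 2.05 (set B). In the list of alternative activation 3 of 19 rose and 7 fell (median -0.31), with Pparg, a lipid-sensing nuclear receptor, at 21.2 to 30.4 CPM and 1.97 to 4.98 CPM (log2 -2.90 ± 0.16). Among proteases Mmp14, a membrane metalloproteinase, rose by 3.92 ± 0.43 and Plau, urokinase, fell by 2.44 (SE 0.37).

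Mitosis and chromosome segregation genes fell in 48 of 50 cases, 47 of them without overlap, with a median log2 fold change of -3.59. At 2 h, 4 of them stood below control and 2 above (median -0.27). Ccna2, cyclin A2 (chromosome 3, 36564865 to 36572150), had 36.4 to 112 CPM at 2 h (median 78.7) and 0.659 to 4.72 CPM at 8 h (median 2.35), a log2 value of -4.85 ± 0.49 (edgeR adjusted p = 1.53e-10). Set B libraries were the higher ones at both times. Cenpf, a kinetochore protein, fell by 5.39 (SE 0.38), Nek2, a centrosome kinase, by 4.74 (SE 0.40), Kif23, a kinesin of the central spindle, by 4.72 (SE 0.33) and Cdc20, an activator of the anaphase-promoting complex, by 4.55 (SE 0.36). Anln, the actin-binding protein anillin of the cleavage furrow, fell from 26.1 to 77.4 CPM to 0.395 to 2.85 CPM (log2 -5.41 ± 0.45).

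Pttg1, the separase inhibitor securin, was the exception. It rose from 17.7 to 27.8 CPM (median 18.7) to 90.7 to 109 CPM (median 105) without overlap (log2 2.33 ± 0.16, edgeR adjusted p = 2.15e-14), in both sets (2.19 and 2.47) and in KO-labelled libraries (2.48 ± 0.16). The other member not lower was Tpx2, a spindle assembly factor, which was not called (0.42), with 1.28 (set A) and -0.48 (set B), both called.

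DNA replication genes fell in 40 of 44 cases, and 1 rose (median -1.93). Rrm2, the small subunit of ribonucleotide reductase, had 29.1 to 116 CPM at 2 h and 1.32 to 5.60 CPM at 8 h (log2 -4.46 ± 0.47), and Mcm2, of the replicative helicase, fell by 3.35 (SE 0.46). Rfc3, a subunit of the clamp loader, rose by 1.06 ± 0.20, but by 1.71 (set A) and 0.25 (set B), where it was not called. Of the G1 cyclins, CDK inhibitors and related factors 8 of 32 rose and 15 fell (median -0.60). Ccnd2, cyclin D2, rose from 23.2 to 52.1 CPM to 276 to 423 CPM (log2 2.97 ± 0.25). E2f2, an activator of S phase genes, fell by 3.44 (SE 0.43) and Cdkn2c, the inhibitor p18, by 3.47 (SE 0.20).

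The cell cycle homology region, a promoter site of late cell cycle genes, was searched as TTTGAA on both strands. Its letters GAA are shared with the ISRE core, so matches of both can overlap. It stood in 30 of 42 mitosis genes with a promoter (71.4%), 6 of 35 replication genes (17.1%) and 1422 of 9769 tested genes (14.6%). It stood in 16.3% of genes called lower, 13.9% of those called higher and 13.5% of those not called, and in 16 of 49 interferon-stimulated genes (32.7%). The promoter of Anln (chr9:22389157-22389456, minus strand) is printed as that of the mitosis gene with the largest fall that holds it, with both matches, from bases 22 and 29 of the transcript, in capitals.
Anln: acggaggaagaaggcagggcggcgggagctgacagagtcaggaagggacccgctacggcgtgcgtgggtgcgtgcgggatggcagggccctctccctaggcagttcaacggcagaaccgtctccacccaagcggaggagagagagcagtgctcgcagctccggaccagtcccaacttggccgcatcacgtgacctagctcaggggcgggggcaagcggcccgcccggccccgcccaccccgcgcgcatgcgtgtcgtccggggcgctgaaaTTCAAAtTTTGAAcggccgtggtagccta

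Further large falls lay outside the cell cycle. St6gal1, a sialyltransferase, went from 32.7 to 82.9 CPM to 0.295 to 1.84 CPM (log2 -5.58 ± 0.42), the largest fall under the rule for named genes. Nav2, a cytoskeletal regulator, fell from 66.1 to 87.9 CPM to 1.13 to 2.36 CPM (log2 -5.38 ± 0.19). Zdhhc14, a palmitoyltransferase, fell by 5.37 (SE 0.31) and Rasgrp3, a guanine nucleotide exchange factor of Ras, by 5.35 (SE 0.22). These 4 genes were near their control levels at 2 h, with log2 differences of -0.19, 0.25, 0.40 and -0.43, of which the last was called.

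Genes that build the translation machinery fell as well. Ribosome biogenesis genes fell in 28 of 35 cases, and 2 rose (median -0.89), with Nop58, a core protein of snoRNA particles, at 41.2 to 91.4 CPM and 8.17 to 17.5 CPM (log2 -2.36 ± 0.27). Cytosolic tRNA synthetases fell in 14 of 20 cases, and 4 rose (median -0.71). Iars fell by 1.67 (SE 0.19), while Wars, the tryptophan enzyme known to be induced by interferon, rose from 39.9 to 77.1 CPM to 259 to 501 CPM (log2 2.46 ± 0.18). The rise of Wars was 3.0 (set A) and 1.87 (set B). Cytosolic ribosomal protein genes moved little, with a median of -0.10, 32 of 84 lower and 3 higher, and with 79 lower and 0 higher under library totals alone. Rpl3 fell by 0.50 (SE 0.07). Respiratory chain subunits had a median of 0.10, with 24 of 75 higher and 6 lower, and of -0.36 under library totals alone, with 1 higher and 63 lower. Ndufs4, a subunit of complex I, rose by 0.89 ± 0.12.

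Lipid genes showed no common direction. Sterol synthesis and uptake genes rose in 3 of 24 cases, and 6 fell, with a median of 0.23 that was -0.24 under library totals alone. Dhcr7, the last enzyme of cholesterol synthesis, fell by 1.64 (SE 0.16). Genes of the list of liver X receptors, cholesterol efflux and related lipid genes rose in 5 of 21 cases, and 6 fell (median -0.09). Under library totals alone 4 were higher and 10 lower. Abcg1, a cholesterol exporter, and Mertk, a receptor for dead cells, rose by 2.10 ± 0.22 and 2.18 ± 0.32, and Scd2, a desaturase, fell by 2.28 (SE 0.47). Slc40a1, the iron exporter ferroportin, had 67.4 to 285 CPM at 2 h and 12.6 to 41.0 CPM at 8 h (log2 -2.68 ± 0.66).

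Circadian clock genes fell in 11 of 19 cases, and 1 rose (median -0.89). Bhlhe40, a repressor of the clock, fell from 65.8 to 115 CPM to 4.23 to 18.2 CPM (log2 -2.84 ± 0.38) and Nr1d1, the repressor REV-ERB alpha, from 8.33 to 24.8 CPM to 1.40 to 4.28 CPM (log2 -2.35 ± 0.34). The list median was -1.08 (set A) and -0.17 (set B), and for 9 of the 19 genes the change was called lower in set A. In the KLF family, where 2 of 12 rose and 7 fell, Klf10 fell by 2.23 (SE 0.21). Herpud1, of endoplasmic reticulum quality control, fell by 2.15 (SE 0.26), in a list of which 4 of 28 rose and 10 fell, or 2 and 21 under library totals alone.

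The KO-labelled libraries, which are separate from the WT-labelled ones, were compared in the same way. EdgeR called 8446 genes there (65.2%). Of these 7463 were also called in WT-labelled libraries, 91.8% of the WT calls and 88.4% of the KO calls, and all 7463 had the same direction. The fold changes correlated with r = 0.959 over 12957 genes, a correlation across genes that are no independent replicates. All 67 interferon-stimulated genes rose (median 3.27 against 3.66) and 48 of 50 mitosis genes fell (median -3.09 against -3.59). The difference between the labels in the change was tested itself and called 0 genes (0.0%) with edgeR's quasi-likelihood test, with 430 genes at an unadjusted p below 0.05. DESeq2 and limma-voom also called 0. Irf7, for example, rose by 4.20 in KO-labelled libraries and 5.36 in WT-labelled ones, and Nos2 by 7.81 and 6.84, differences that were not called.

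**Figure D3:**
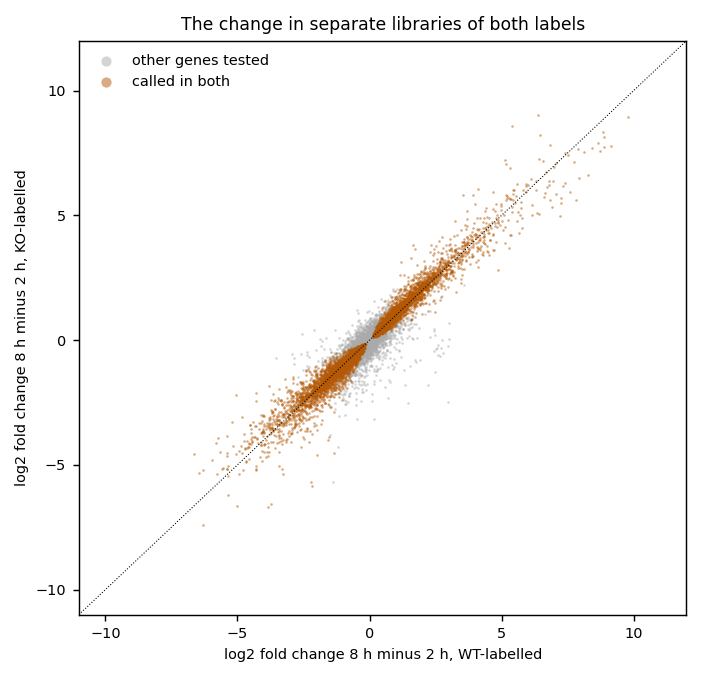
Log2 fold change between 8 and 2 h of LPS in WT-labelled (x axis) and KO-labelled libraries (y axis) for 12957 tested genes, with the 7463 called in both in orange, the others in grey and the line of equal change dotted. The genes called in both lie below 0 or above 0 on both axes, with 0 of opposite sign.

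The library sets did differ. Within set A 8221 genes were called and within set B 8254, of which 6577 in both, 6446 in the same and 131 in the opposite direction (r = 0.858 across genes). A test of the difference between the sets called 2064 genes (15.9%), 1079 with the more positive change in set A and 985 in set B. Among those named by the rule with the more positive change in set A, Cd69, an early activation marker, rose from 52.9 to 93.3 CPM to 737 to 4040 CPM, by 5.47 (set A) and 3.08 (set B) (difference 2.39 ± 0.28). Atp10a, a lipid flippase, rose by 5.24 and 3.07, and Igsf9 by 3.71 and 1.55. Wee1, the inhibitory kinase of CDK1, was not called over both sets (-0.78 ± 0.36), with 0.22 (set A) and -2.0 (set B), and Psrc1, a spindle protein, likewise (-0.43 ± 0.41), with 0.16 and -1.95.

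In the other direction 4 of the 5 genes named were expressed in skeletal muscle. Tpm2, Eno3, Tnni2 and Pgam2 had 158, 160, 208 and 62.1 CPM in replicate 5 at 8 h, the set B library with 5250 CPM of muscle markers, and at most 7.51, 6.72, 9.23 and 6.49 CPM in the other 8 h libraries. Without that library Tpm2, Eno3 and Tnni2 were called lower at 8 h (-1.33, -1.26 and -1.70) in place of 1.80, 1.73 and 1.32, and Pgam2 was not called (0.40 in place of 1.94). The fifth was Ms4a4a, a tetraspan of alternatively activated macrophages, which rose by 0.58 (set A) and 4.24 (set B) and reached 32.7 CPM in 1 of the 2 h libraries. Neutrophil markers moved with the sets, at 325 to 357 CPM in set B and 59.8 to 91.4 CPM in set A at 2 h, and 230 to 242 CPM and 36.6 to 71.3 CPM at 8 h. Their part in the set differences was not tested.

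**Figure D4:**
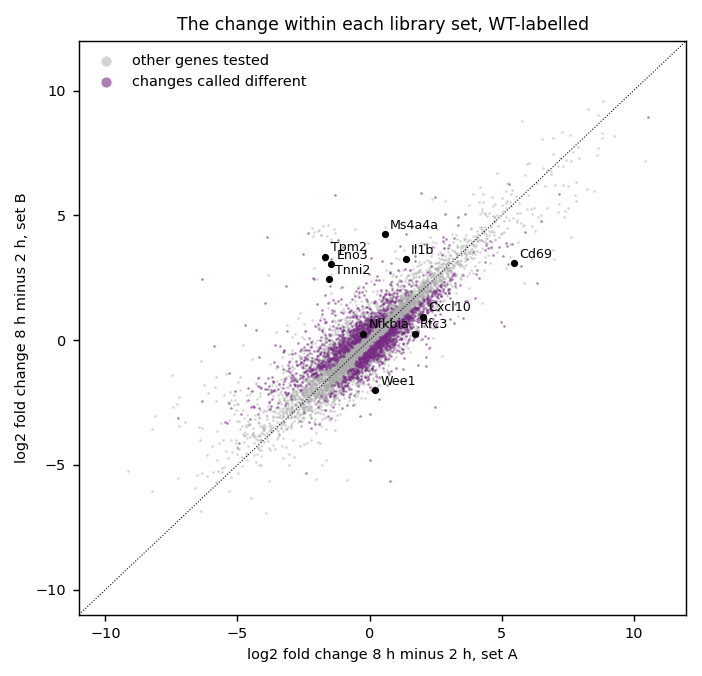
Log2 fold change between 8 and 2 h of LPS in the 3 libraries per time of set A (x axis) and of set B (y axis), for 12957 tested genes of WT-labelled macrophages. Purple marks the 2064 genes whose changes were called different between the sets, the dotted line marks equal change, and 10 genes are named, among them the muscle genes Tpm2, Eno3 and Tnni2 above the line.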

How the data were processed

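Reads were counted per gene with HTSeq on the mouse build mm10, per the submitters' processing notes, and the authors deposited these raw counts per gene for each library. The strand setting was not stated, nor was the aligner, so overlapping genes may share reads. Of 54232 gene identifiers 54165 were named from GENCODE M21.

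Counts of all 36 libraries entered 1 fit with a mean for each of 6 groups of 6, in edgeR 4.0.16 (R 4.3.3): expression filter (12957 genes), trimmed mean of M values scaling, robust quasi-likelihood test, Benjamini-Hochberg adjustment over all tested genes, threshold 0.05. CPM are per effective library size. The sets A and B were read from the first principal component, and their difference was tested in a second fit with a mean per group and set. Alternatives used DESeq2 1.42.0, limma-voom (limma 3.58.1), other scalings and filters, and libraries left out. The scripts were tested on simulated counts.

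Named genes were the 10 largest called changes each way with a mean log2 CPM of at least 2, up to 3 called members each way per list, set members of interest such as Tnf and Socs1, and the 5 largest set differences each way. Those starting with Gm plus digits or ending in Rik were left out, and some items the rule names are not reported here. Ifit1bl1 and Tgtp1 are shown for their promoters, and Tpx2 was named after its values were seen. The comparison, the lists and the tests were chosen with earlier results of these data known.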

Additional observations from a re-analysis of the deposited data

Results flagged for a closer look

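Of 270 groups of 6 libraries looked at (1 gene at 1 time), 33 (12.2%) had a library whose gap to the nearest of the others was above the critical value of Dixon's test, where chance gives about 1 in 20. Of these, 15 were set apart by replicate 1 at 2 h, 7 by replicate 6 at 2 h, 4 by replicate 5 and 2 by replicate 6 at 8 h, and 5 by 3 other libraries. The genes looked at were those named in the text, among them muscle genes named for a set difference, and are no sample of all genes. Over all genes with a mean log2 CPM above 3, 650 of 8471 at 2 h and 362 of 8098 at 8 h had such a library. Replicate 1 at 2 h stood apart in 468 of those 8471 genes (5.52%). Each value below is given against the nearest of the other 5 libraries.

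Replicate 1 at 2 h was the highest for Batf2 at 9.61 against 5.6 CPM, Bhlhe40 at 115 against 72.1 CPM, Cxcl1 at 230 against 166 CPM, Cxcr4 at 27.2 against 11.8 CPM, Ier3 at 47 against 20.7 CPM, Il23a at 8.4 against 5.16 CPM and Nfkbid at 128 against 71.6 CPM. It was also the highest for Nfkbiz at 1110 against 883 CPM, Nlrc5 at 58.4 against 32.8 CPM, Pttg1 at 27.8 against 20.7 CPM, Rasgrp3 at 51.5 against 36.5 CPM, Rel at 353 against 277 CPM, Slc7a2 at 172 against 121 CPM and Zbp1 at 30.2 against 16.4 CPM. It was the lowest for Psma6 at 123 against 160 CPM.

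Replicate 6 at 2 h was the highest for Eno3 at 27.6 against 9.31 CPM, Il18 at 10.4 against 7.47 CPM, Pgam2 at 13 against 3.19 CPM, Serpina3f at 0.899 against 0.506 CPM, Tnni2 at 36.5 against 18.2 CPM and Tpm2 at 28.2 against 8.8 CPM, and the lowest for Rfc3 at 7.19 against 12.2 CPM. Tpm2, Eno3, Tnni2 and Pgam2 are expressed in skeletal muscle, whose markers summed to 612 CPM in that library.

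Replicate 2 at 2 h was the highest for Klf10 at 50.7 against 37.4 CPM and the lowest for Mlkl at 25.6 against 33.4 CPM, and replicate 3 was the highest for Cfb at 0.278 against 0.095 CPM.

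At 8 h replicate 5 was the highest for Eno3 at 160 against 6.72 CPM, Pgam2 at 62.1 against 6.49 CPM, Tnni2 at 208 against 9.23 CPM and Tpm2 at 158 against 7.51 CPM, with muscle markers at 5250 CPM. Replicate 6 was the highest for Socs1 at 90.9 against 71.7 CPM and the lowest for Il10 at 27.2 against 39.9 CPM. Replicate 2 was the highest for Fosb at 0.604 against 0.132 CPM and the lowest for Cp at 157 against 225 CPM.

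The change between 8 and 2 h differed between the unlabelled library sets A and B for 2064 of 12957 genes, by edgeR's quasi-likelihood test of the difference itself.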

How the results depend on the processing

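Of 135 genes followed under 25 alternatives, 3271 values kept their direction and their side of the threshold, 43 were no longer called, 27 became called and 30 changed sign. The count of called genes ran from 7294 to 9537 in place of 8131 under the alternatives other than a minimum change. Leaving out 1 library at a time gave 7944 to 8198 called genes, 3806 to 3907 higher and 4103 to 4291 lower. A minimum log2 fold change of 1 left 2472 genes, 1199 higher and 1273 lower, and for the difference between the sets 38, 10 more positive in set A and 28 in set B, since that test asks for more than a difference from 0. Library totals alone gave 2124 higher and 7413 lower. That scaling also turned the signs of Tnf (-0.33), Fos (-0.27) and Tpx2 (-0.07), not called under either scaling, and of 14 of 52 list medians. The difference between the labels called 0 genes under every alternative run.

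Within set A alone Arg1 was at 1.39, Il10 at -0.11, Pgam2 at -0.18, Psrc1 at 0.16, Wee1 at 0.22, Eno3 at -1.44, Tnni2 at -1.53 and Tpm2 at -1.68. Within set B alone Tpx2 was at -0.48. Eno3, Tnni2 and Tpm2 were at -0.02, -0.74 and -0.04 with limma-voom, at -0.47, -1.36 and -0.49 without the 4 libraries with muscle markers above 100 CPM, and at -1.26, -1.70 and -1.33 without replicate 5 at 8 h. Leaving out 1 library at a time moved them over -1.26 to 2.49, -1.70 to 1.76 and -1.33 to 2.71, each highest without replicate 6 at 2 h. Nfkbia, at -0.01, changed sign to 0.01 with DESeq2 size factors, the DESeq2 Wald test and without the libraries labelled BMDM, to 0.00 with the set as a term, to 0.25 in set B, and to between 0.01 and 0.04 without replicate 1, 2 or 6 at 2 h or replicate 2 at 8 h (0.04, 0.01, 0.01 and 0.02), within a range of -0.05 to 0.04 over all single libraries left out. Beyond those alternatives' own construction the cause was not tested. No paired analysis was run, because the labels give no number, animal or batch that ties a 2 h library to an 8 h library. The replicate numbers used here follow only the order of deposit. Xist reads in replicate 1, and muscle markers above 100 CPM in replicates 5 and 6, recurred at both times, but such marks do not tie every library. For Gbp10, with no count at 2 h, depth allows a lower bound only.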

Other observations

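Gene lists not described so far mostly divided between the directions. Costimulatory and checkpoint genes rose in 8 of 16 cases, and 6 fell, with a median log2 fold change of 1.0 and a range from -2.98 to 6.16. Purinergic, adenosine and lipid mediator receptors rose in 13 of 27 cases, and 9 fell, and integrins and adhesion molecules in 11 of 26 with 8 lower, with medians of 0.34 and 0.25 that were -0.14 and -0.22 under library totals alone. Fatty acid oxidation genes fell in 13 of 25 cases, and 7 rose (median -0.31), with 19 and 2 under library totals alone. Genes of the citric acid cycle fell in 10 of 29 and rose in 4 (median -0.01), with 26 and 1 under that scaling. In the NRF2 antioxidant list 8 of 21 genes rose and 6 fell, and for 7 of the 21 the change was called lower in set A than in set B. The list also holds Nfe2l2, which encodes NRF2 and fell (log2 -0.53), and Keap1, the inhibitor of NRF2, which rose (log2 2.23). Of 717 tested long noncoding RNAs 171 rose and 174 fell, and of 11714 protein-coding genes 3608 and 3999.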
